A study of Mus musculus with 8 samples.

Results

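Fcgr1, Fcgr2b and Fcgr3 encode receptors for the constant part of IgG. Fcer1g encodes an adaptor chain that such receptors signal through, and Tyrobp a related adaptor that serves other receptors. These genes were taken by gene symbol from the array's platform annotation. All 5 were represented, among 8251 genes that had a probe set with 1 symbol. Together they had 7 of the 12422 probe sets tested: 2 for Fcgr1, 2 for Fcer1g and 1 for each of the others.

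The cells were CD8+ dendritic cells purified from spleens of female DBA/2J mice aged 60 days, all given Flt3-L, a cytokine that increases dendritic cell numbers in the animal, at 10 µg over 9 days. All groups therefore came from Flt3-L-treated mice, and no group came from untreated mice. The cells were cultured either without added cytokine, called medium here, or with mouse IFN-γ at 200 U/ml, and RNA was taken after 4 or 16 hours. Each of the 4 groups had 2 arrays, 8 in all, and this number limits the precision. The labels do not say whether the arrays of a group stand for separate mice or cultures, so p-values reflect the spread among arrays alone, and that spread may be technical.

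Fc receptors let a cell detect antigen that antibody has coated. FcγRI, encoded by Fcgr1, binds monomeric IgG with high affinity, and FcγRIII, encoded by Fcgr3, binds immune complexes. Both are carried to the cell surface and signal with the common γ chain, the product of Fcer1g, which holds an ITAM, an activating tyrosine motif that recruits the kinase Syk. FcγRIIB, encoded by Fcgr2b, works in the opposite sense through an inhibitory motif, the ITIM, that recruits phosphatases. Tyrobp encodes DAP12, a second ITAM adaptor, which serves receptors of the TREM, CD300 and NK-receptor families rather than Fc receptors. In dendritic cells these receptors take up immune complexes for presentation to T cells.

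Values below are log2 of the deposited intensity unless a linear intensity is named, and differences were tested with limma, with Benjamini-Hochberg adjustment over all 12422 probe sets and a call at an adjusted p under 0.05. The median of 15 antisense control probe sets, which match no mouse transcript and measure unspecific signal, had a group mean between 5.61 and 5.79. Tyrobp, Fcgr2b and both Fcgr1 probe sets were above this level on all 8 arrays. The Fcgr3 probe set and the dimmer one of Fcer1g were below it on all 8, so whether these transcripts were present or changed cannot be read from them. The brighter Fcer1g probe set was at this level at 4 hours and above it at 16 hours.

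**Figure D1:**
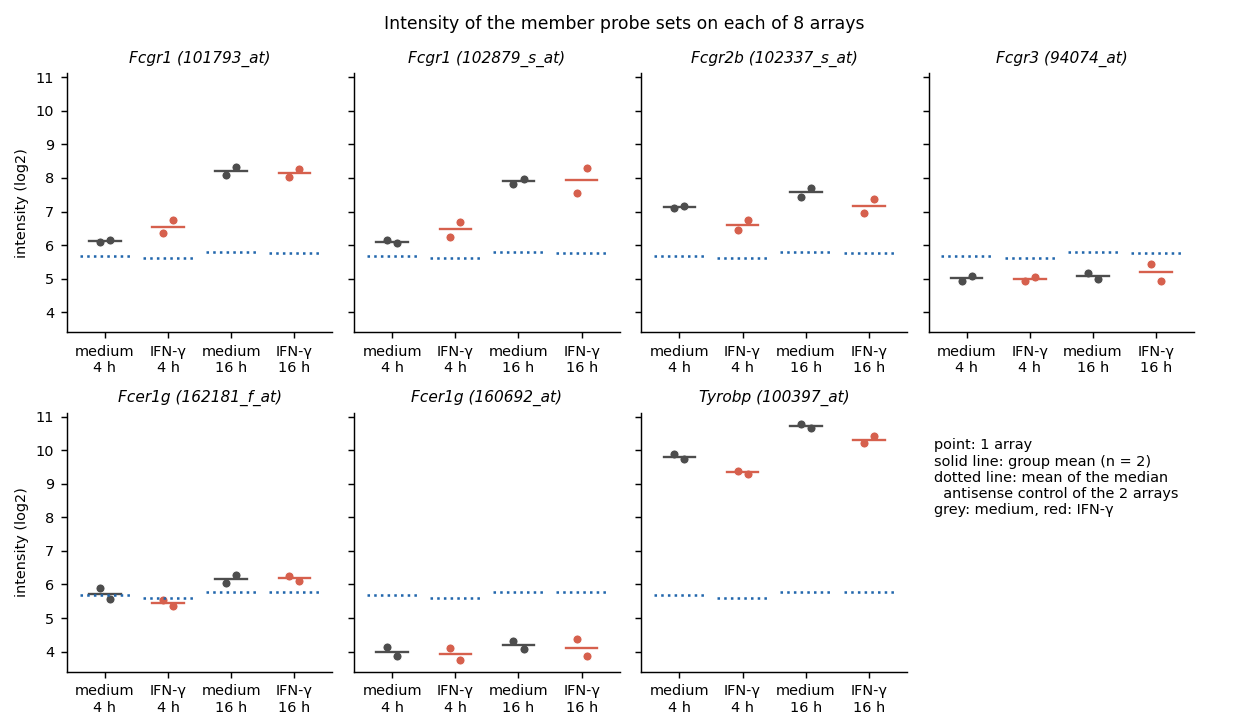
Intensity (log2) of the 7 probe sets on every array, by group, with group means (n = 2) and the mean antisense control level as a dotted line. Tyrobp and Fcgr1 are higher at 16 than at 4 hours, Tyrobp and Fcgr2b are lower with IFN-γ at each time, and Fcgr3 and the Fcer1g probe set 160692_at lie under the dotted line in all 4 groups.

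The markers of the sorted cell Cd8a, Irf8, Batf3 and Flt3 were above the antisense controls in all 4 groups, and 9 of 11 measured markers of CD8+ dendritic cells were so in at least 1 group (Zbtb46 and Itgae were not). Xcr1, a further marker of these cells, was above the controls in only 1 group. Markers of other cells, some of which carry Fc receptors, passed this level in at least 1 group too. This held for 9 of 13 measured macrophage markers, 7 of 9 neutrophil markers, 6 of 6 B cell markers and 6 of 6 T cell markers. It held for 3 of 6 NK cell markers, with Ncr1, a defining NK cell receptor, below the controls. It also held for 7 of 9 mast cell or basophil markers, though Fcer1a and Ms4a2 were below the controls in all groups. The median probe set, at 5.71 in its mean over the arrays, lay near the controls. Passing them in 1 group therefore does not show that a cell type was present. Some markers of other cells were far above the controls in all 4 groups, however. Group means were 9.56 to 10.04 for Cd79b of B cells, 10.47 to 10.64 for S100a8 of neutrophils and 8.68 to 11.12 for Lyz2 of macrophages. Others of these lists, such as Ly6g of neutrophils and Marco of macrophages, were above them in no group. Which cells gave these signals was not tested. The levels below are those of the whole cell preparation, in which fewer cells of a type and less RNA per cell cannot be told apart.

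With time in culture, Fcgr1 and Tyrobp rose, both in medium and with IFN-γ. In medium, 3 of the 7 probe sets rose between 4 and 16 hours and 0 fell, where 1.71% of all probe sets rose and 2.57% fell. With IFN-γ, 4 of 7 rose and 0 fell, where 0.821% of all rose and 1.3% fell. The median of the 7 differences was 0.45 in medium and 0.75 with IFN-γ, against 0.05 over all probe sets in each. For 5 of the 7 both arrays at 16 hours were above both at 4 hours, in medium as with IFN-γ, which held for 30.8% and 21.6% of all probe sets. Fcgr3 and the dimmer Fcer1g probe set, both below the antisense controls, were the others. The pair of Fcgr1 probe sets measure the same gene and are not independent. Over the same interval in medium 10 of 13 macrophage and 2 of 3 monocyte markers rose, and the markers of the sorted cell had a median difference of -0.33, with values given after the members.

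On its brighter probe set, 101793_at, Fcgr1 went in medium from 6.08 and 6.16 after 4 hours to 8.09 and 8.32 after 16. Under IFN-γ its values were 6.35 and 6.74 after 4 hours and 8.04 and 8.26 after 16. All 4 arrays at 16 hours were above all 4 at 4 hours. The rise in medium was 2.08 (SE 0.16, adjusted p = 0.000362, limma), or 4.24-fold, the largest rise of any probe set in that comparison. With IFN-γ the rise was 1.60 (SE 0.16, adjusted p = 0.0015), or 3.04-fold. Mean linear intensity went from 69.6 to 296 in medium and from 94.3 to 284 under IFN-γ. The level at 4 hours in medium was close to the antisense controls, at 5.79 and 5.59 on the same arrays, so the size of these rises is uncertain.

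The other Fcgr1 probe set, 102879_s_at, whose suffix marks probes that can match more than 1 transcript, moved alike. It rose by 1.81 in medium (SE 0.23, adjusted p = 0.00404) and by 1.45 with IFN-γ (SE 0.23, adjusted p = 0.0167). The pair correlated with r = 0.984 over the 8 arrays. Its IFN-γ arrays at 16 hours lay far apart, at 7.54 and 8.31, and its rise with IFN-γ was not called without array 1 (adjusted p = 0.16) or array 2 (adjusted p = 0.0715) of IFN-γ at 4 hours.

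For IFN-γ against medium, Fcgr1 was not called at either time. At 4 hours both IFN-γ arrays were above both medium arrays on each probe set, with differences of 0.42 (95% interval 0.07 to 0.78, adjusted p = 0.849, limma) and 0.37 (95% interval -0.16 to 0.90, adjusted p = 1). At 16 hours the arrays overlapped, and the differences were -0.06 (95% interval -0.41 to 0.29) and 0.02 (95% interval -0.51 to 0.54), neither called. The effect at 16 hours minus that at 4 hours was -0.48 on the brighter probe set (95% interval -0.98 to 0.01, adjusted p = 1). Thus neither an IFN-γ effect on Fcgr1 nor a change of it with time passed the test.

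Fcgr1 is known from other systems as a gene that IFN-γ induces, and the gamma-activated sequence (GAS) is a motif of promoters that respond to IFN-γ, so its promoter is shown. The RefSeq promoter window in the build GRCm38.p6, 250 bases before to 50 after the start, lies on chr3:96293920-96294219, minus strand. It is given 5′ to 3′, with its match to the GAS letters TTCNNNGAA in capitals:

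Fcgr1: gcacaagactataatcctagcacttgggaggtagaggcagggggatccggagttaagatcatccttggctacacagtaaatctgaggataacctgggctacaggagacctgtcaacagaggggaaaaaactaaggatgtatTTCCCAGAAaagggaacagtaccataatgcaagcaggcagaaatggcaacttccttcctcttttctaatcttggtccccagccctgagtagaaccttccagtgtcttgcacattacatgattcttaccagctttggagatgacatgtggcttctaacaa

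The match TTCCCAGAA begins 109 bases before the start. These letters read the same on both strands, and 8.3% of 32851 promoter windows of this length hold a match, so 1 match is a description and not a site. Windows were found for 4 of the 5 genes. Those of Fcgr2b, Fcgr3 and Fcer1g hold no match to GAS. The interferon-stimulated response element was searched as GAAA followed after any 2 bases by GAAA, found in 3.44% of windows. For PU.1 the exact letters GAGGAAGT were searched, found in 3.2%. Both were searched on both strands and matched in none of the windows of the 4 genes. Shorter or variant forms were not searched, so sequences like them may be present. The match in Fcgr1 is the only one of any of the 3 motifs, as searched, in these windows.

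Fcgr3 gave no reading. Its probe set read between 4.93 and 5.45 over the 8 arrays, below the antisense controls. Its differences in the 4 comparisons of groups lay between -0.03 and 0.21, and none was called.

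Fcgr2b, the inhibitory receptor, was lower with IFN-γ at both times. Its 1 probe set, 102337_s_at, has the suffix of probes that can match more than 1 transcript, so the signal may include other transcripts. It read 7.09 and 7.16 in medium at 4 hours against 6.46 and 6.75 with IFN-γ, and 7.44 and 7.71 in medium at 16 hours against 6.97 and 7.38 with IFN-γ. At each time both IFN-γ arrays were below both medium arrays. The difference at 4 hours was -0.52 (SE 0.17, 95% interval -0.90 to -0.15), not called without the replicate block (adjusted p = 0.601, limma) and called with the replicate number as a block (adjusted p = 0.0407), where 0.177% of all were called lower. No label says that arrays of 1 number belong together, and this pairing was inferred from their values. At 16 hours it was -0.40 (SE 0.17, adjusted p = 1, or 0.179 with the block). The effect at 16 hours minus that at 4 hours was 0.12 (95% interval -0.41 to 0.65, adjusted p = 1). The time difference was 0.45 for medium (adjusted p = 0.204; blocked, 0.017) and 0.57 for IFN-γ (adjusted p = 0.135; blocked, 0.00681), so both were called with the block alone, where 4.52% and 3.2% of all probe sets rose. Its level with IFN-γ at 16 hours overlapped that in medium at 4 hours.

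The summed intensity of 6 B cell markers, cells that carry FcγRIIB as their Fc receptor, after 4 hours was 2957.5 and 2571.9 on the medium arrays, and 2286.6 and 2173.9 on the IFN-γ arrays. After 16 hours the medium arrays gave 2939.2 and 3212.8, the IFN-γ arrays 3201 and 3465.7. The sum was thus lower with IFN-γ at 4 hours and not at 16, while Fcgr2b was lower at both. The summed macrophage markers, given with the other marker lists, were lower with IFN-γ at both times. The part of B cells in the Fcgr2b differences was not tested.

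The promoter window of Fcgr2b is shown as well, from chr1:170976022-170976321, minus strand, GRCm38.p6, 5′ to 3′. It holds no match to the 3 motifs and hence no capitals:

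Fcgr2b: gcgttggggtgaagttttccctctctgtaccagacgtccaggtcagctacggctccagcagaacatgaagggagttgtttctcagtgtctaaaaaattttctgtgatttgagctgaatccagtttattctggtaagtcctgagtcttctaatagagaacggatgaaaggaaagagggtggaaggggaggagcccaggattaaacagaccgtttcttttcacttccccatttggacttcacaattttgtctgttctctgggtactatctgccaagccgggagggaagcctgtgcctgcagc

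The absence of a match says only that these letters are not in this window. Whether the windows of Fcgr1 and Fcgr2b bear on their differences with IFN-γ was not tested.

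Fcer1g, the common γ chain, was measured weakly. Its brighter probe set, 162181_f_at, whose suffix marks probes shared by a family of sequences, lay around the antisense controls after 4 hours, with 5.89 and 5.55 for medium and 5.53 and 5.35 for IFN-γ. After 16 hours medium gave 6.04 and 6.28 and IFN-γ gave 6.26 and 6.11. Every array at 16 hours was above every array at 4 hours. The difference with time was 0.75 with IFN-γ (SE 0.15, adjusted p = 0.0385, limma) and 0.44 in medium (SE 0.15, adjusted p = 0.161). Both arrays of IFN-γ at 4 hours were below the antisense controls, so the size of the rise is uncertain. The call with IFN-γ was lost without array 1 or 2 of medium at 4 hours (adjusted p = 0.0591 in each), without array 1 or 2 of IFN-γ at 4 hours (adjusted p = 0.175 and 0.352) and without array 1 of IFN-γ at 16 hours (adjusted p = 0.126). It was lost as well with median centring (adjusted p = 0.0513) and when only the 4 IFN-γ arrays were fitted (adjusted p = 0.0571). IFN-γ against medium differed by -0.28 at 4 hours (95% interval -0.62 to 0.05) and by 0.02 at 16 hours (95% interval -0.31 to 0.36), neither called. The dimmer probe set, 160692_at, read between 3.75 and 4.37 on all arrays, below the controls, with differences from -0.08 to 0.20 and none called. With both averaged, the rise with IFN-γ was 0.47 and not called (adjusted p = 0.163).

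Tyrobp was the brightest of the 7 relative to the array, above 98.2% of probe sets in its mean over the 8 arrays. After 4 hours its values were 9.88 and 9.73 for medium and 9.39 and 9.28 for IFN-γ. After 16 hours they were 10.77 and 10.67 for medium and 10.22 and 10.41 for IFN-γ. No groups overlapped, and from low to high the order was IFN-γ at 4 hours, medium at 4 hours, IFN-γ at 16 hours and medium at 16 hours.

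Tyrobp rose by 0.92 with time in medium (SE 0.12, adjusted p = 0.00442, limma), or 1.89-fold, and by 0.98 with IFN-γ (SE 0.12, adjusted p = 0.00549), or 1.97-fold. The call in medium was lost without array 2 of medium at 4 hours (adjusted p = 0.0771), and that with IFN-γ without array 1 (adjusted p = 0.057) or array 2 (adjusted p = 0.0802) of IFN-γ at 4 hours. IFN-γ against medium differed by -0.47 at 4 hours (95% interval -0.74 to -0.20, adjusted p = 0.308) and by -0.41 at 16 hours (95% interval -0.68 to -0.14, adjusted p = 0.717), neither called. The effects differed by 0.06 (95% interval -0.32 to 0.44).

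Because Tyrobp and Fcgr2b were lower at both times, a model with 1 IFN-γ effect over both times and 1 time effect was fitted, a choice made after these values had been seen. In it Tyrobp was lower with IFN-γ by limma (-0.44, SE 0.08, adjusted p = 0.0454, or 0.0115 with the replicate block), where 0.169% of all probe sets were called lower, or 0.555% with the block. The call did not hold without any 1 of 7 of the 8 arrays (adjusted p between 0.0788 and 0.216). Of the 8, it was kept only without array 2 of IFN-γ at 16 hours, and it was also lost without both 16-hour arrays of number 1 (adjusted p = 0.0958). Fcgr2b differed by -0.46 (SE 0.11), not called without the block (adjusted p = 0.196) and called with it (adjusted p = 0.00761). The other 5 probe sets were not called in either fit. The time effect in this model was called for 5 of the 7, namely both of Fcgr1, Fcgr2b, the brighter of Fcer1g and Tyrobp, where 3.98% of all rose.

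For IFN-γ against medium, then, 0 of the 7 probe sets were called at either time by limma without the block. Over all probe sets 0.258% were called higher and 0% lower at 4 hours, and 0.161% and 0.0966% at 16 hours. At an unadjusted p under 0.05, 3 members differed at 4 hours (Fcgr1, Fcgr2b and Tyrobp) and 2 at 16 hours (Fcgr2b and Tyrobp), where 4.02% and 3.43% of all probe sets did. Arrays did not overlap for 2 members above and 3 below at 4 hours, where this held for 15.4% and 17.9% of all probe sets. At 16 hours it held for 0 above and 2 below, against 9.1% and 9.85% of all. Actb probe sets at the 3′ and 5′ ends, a gauge of how intact the RNA was, had a ratio of 2.04 and 2.20 for medium after 4 hours against 1.47 to 1.68 on the other 6 arrays, so it differed in the comparisons that use that group, and its part in them was not tested.

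**Figure D2:**
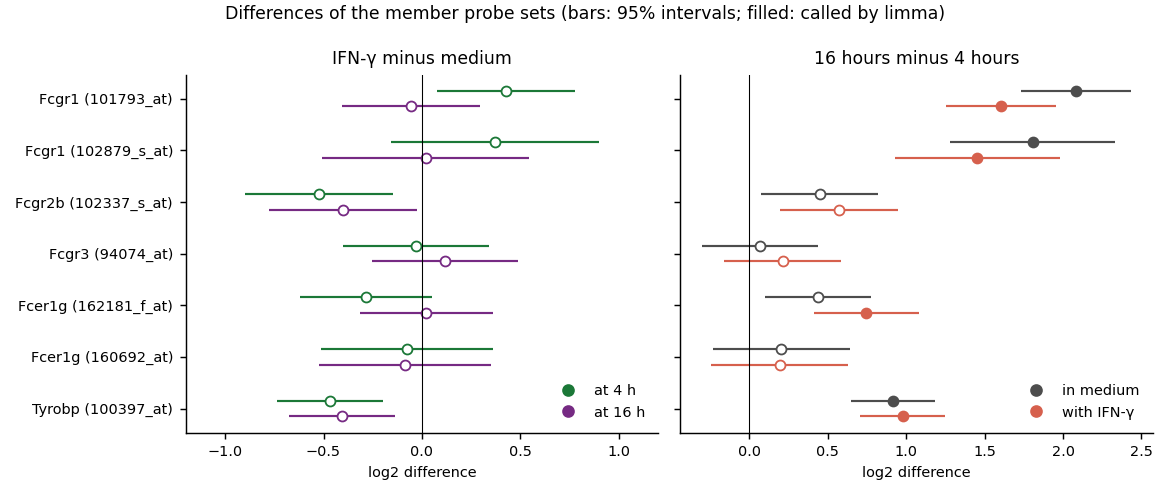
Log2 differences of the 7 probe sets with 95% intervals, IFN-γ minus medium on the left and 16 minus 4 hours on the right, with filled points called by limma. Filled points appear only on the right, for Fcgr1 and Tyrobp in both settings and for Fcer1g with IFN-γ, while Tyrobp and Fcgr2b lie below 0 on the left.

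Markers of macrophages, which carry FcγRI, FcγRIIB and DAP12, mostly rose with time, as Fcgr1 and Tyrobp did. Their summed intensity over 13 genes went from 1801.2 and 1844.1 after 4 hours to 4475.5 and 5240.6 after 16 in medium. Under IFN-γ it went from 1347.7 and 1325.7 to 3203.4 and 3997.6. The sums did not overlap between any groups and had the same order as Tyrobp. Of the 13, 10 rose and 1 fell with time in medium, and 8 rose and 1 fell with IFN-γ. At 4 and at 16 hours 0 of 13 were called for IFN-γ by limma, and 3 and 5 had an unadjusted p under 0.05. For IFN-γ against medium, 6 of the 13 lay above 0 and 7 below at 4 hours, and 2 above and 11 below at 16 hours. Lyz2, encoding a lysozyme of macrophages and neutrophils, took a large share of the sum and differed by -0.83 and -0.78, while C1qb, a chain of complement C1q, differed by 0.17 and 0.30, none called. Without Lyz2 the sum of the other 12, a choice made after these values had been seen, was 1102.9 and 1087.7 for medium against 940.37 and 913.71 for IFN-γ after 4 hours, and 2537.1 and 2697.6 against 2110.8 and 2467.8 after 16. The sums were still lower with IFN-γ at both times, as Tyrobp and Fcgr2b were. Bright genes weigh most in such a sum. Csf1r, the brightest of the 12 in medium at 4 hours, read 8.04 there and 7.31 with IFN-γ, not called. C1qa and C1qc, among the 6 that lay above 0 at 4 hours, differed by 0.01 and 0.07. The sum at 4 hours therefore does not stand for every gene of the list. The part of macrophages in the Fcgr1, Fcgr2b and Tyrobp results was not tested.

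Other marker lists moved with time as well. Of 3 monocyte markers 2 rose in medium, Vcan by 0.84 (adjusted p = 0.00329, limma) and Ccr2 by 0.98 (adjusted p = 0.0309), and Ccr2 rose by 1.03 under IFN-γ (adjusted p = 0.0367). The monocyte sum was 272.64 to 307.19 on the arrays of 4 hours and 423.62 to 520.16 on those of 16 hours, and Vcan fell by 0.71 with IFN-γ against medium at 16 hours (adjusted p = 0.035). Of 4 markers of CD8- dendritic cells, Itgam, an integrin chain also found on macrophages and monocytes, rose by 1.12 in medium (adjusted p = 0.00858). Markers of the sorted CD8+ dendritic cells had a median of -0.33 with time in medium and -0.25 under IFN-γ. Irf8 fell by 0.47 in medium (adjusted p = 0.0385) and Flt3 by 0.52 under IFN-γ (adjusted p = 0.0385), each the only 1 of 11 called there, and Cd8a differed by -0.05 and -0.09. Their sum was 4364.8 and 4563.9 for medium after 4 hours and 3471.5 and 3683.2 after 16, and 4805.2 and 5051.4 followed by 3658.4 and 4288.7 for IFN-γ. With time, 2 of 4 erythroid markers fell in each setting, 1 of 9 mast cell or basophil markers rose in each, and 0 of 3 plasmacytoid dendritic cell markers were called by limma, with 0 in medium and 1 under IFN-γ at an unadjusted p under 0.05. Of 6 B cell markers 0 were called with time in medium, where their median was 0.22. Under IFN-γ their median was 0.62 and 2 rose, Cd22 by 0.89 (adjusted p = 0.0228, limma) and Blk by 0.62 (adjusted p = 0.0436). Of 9 neutrophil markers 1 fell in medium and 0 were called under IFN-γ, and 0 of 6 T cell and 0 of 6 NK cell markers were called in either setting. The part of these cells in the members' rises was not tested.

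The genes closest to each member in pattern were found by Pearson's r of log2 intensity over the 8 arrays, among 800 genes above the array's median and with group means at least 0.5 apart. The arrays share their groups and their 2 times of culture, so these values describe the pattern and nothing more. Nearest to Tyrobp were Csf1r, the receptor for the macrophage growth factor CSF1 (r = 0.992), Pirb (0.990) and F10, coagulation factor X (0.990). Nearest to Fcgr1 were C1qa, a chain of complement C1q (0.980), the monocyte chemokine gene Ccl2 (0.976) and Plin2, a lipid droplet coat protein (0.975). Nearest to Fcgr2b were Rab31, a small GTPase (0.988), Gnpda1 (0.984) and Sirpa, an ITIM receptor for CD47 (0.984). Sirpa likewise read lower with IFN-γ, at 8.19 against 7.59 at 4 hours and 8.73 against 8.15 at 16 hours in group means. A pair of dimmer Sirpa probe sets differed by -0.02 and 0.06 at 4 hours and by -0.69 and -0.58 at 16 hours, so Sirpa's probe sets disagree at 4 hours. For the brighter Fcer1g probe set they were Srpk3 (0.952), Bscl2 (0.944) and Lst1 (0.935). For Fcgr3, which had no readable level, the highest was 0.767, with Inpp5j. Among the members, Tyrobp correlated with Fcer1g at 0.889, with Fcgr2b at 0.875 and with Fcgr1 at 0.831 on their brightest probe sets.

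Among receptors that signal through Fcer1g or Tyrobp, 1 gene was called both for a rise with time and for a fall with IFN-γ. Of 7 such genes measured, each by its brightest probe set, 2 rose with time in medium, 1 rose with time with IFN-γ, and 1 fell with IFN-γ at 16 hours. Over all probe sets these shares were 1.71%, 0.821% and 0.0966%. Cd300c2, an activating receptor of the CD300 family, went in medium from 6.71 and 6.75 to 8.11 and 8.16. Under IFN-γ it went from 6.52 and 6.34 to 7.33 and 7.47. It rose by 1.41 in medium (adjusted p = 0.000465, limma) and by 0.97 with IFN-γ (adjusted p = 0.00477), and at 16 hours it fell by 0.74 with IFN-γ against medium (adjusted p = 0.0453). Clec4d, a C-type lectin receptor, rose by 1.16 in medium (adjusted p = 0.0328). The median of the 7 was 0.09 with time in medium and -0.22 for IFN-γ at 16 hours, against 0.05 and -0.0032 over all probe sets. Klrb1a, Clec4e and Ncr1 were below the antisense controls in all groups, and Trem2 was not analysed here.

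Of 7 other Fc receptor genes measured, 1 was called in the 5 comparisons. Trim21, a cytosolic Fc receptor and ubiquitin ligase, rose by 0.79 with IFN-γ at 4 hours (adjusted p = 0.0188, limma), from 6.91 and 6.92 to 7.69 and 7.73. Fcer1a and Ms4a2, chains of the high-affinity IgE receptor of mast cells, were below the antisense controls in all groups, as was Fcgrt, the neonatal Fc receptor. Of 6 other ITAM or related adaptors measured, which are the CD3 and ζ chains of T cells and the Cd79 chains of B cells, 0 were called by limma in any comparison, and at an unadjusted p under 0.05 1 differed for IFN-γ against medium at 4 hours (Cd79b, -0.33), 1 for the effect at 16 minus that at 4 hours (Cd79a, 0.72) and 2 with time under IFN-γ (Cd79a, 0.63, and Cd79b, 0.46). Over all probe sets 4.02%, 2.84% and 13.7% passed the same limit in these comparisons.

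Downstream of the receptors 1 gene was called. Of 28 measured ITAM signalling kinases, adaptors and effectors, 1 rose and 0 fell with time in medium, where 1.71% of all probe sets rose and 2.57% fell. The same count held with IFN-γ, where 0.821% rose and 1.3% fell. For IFN-γ against medium 0 were called by limma at either time. At an unadjusted p under 0.05, 2 differed at 4 hours and 0 at 16 hours, where 4.02% and 3.43% of all probe sets did. The called gene was Blnk, an adaptor of Syk, in both settings (0.48, adjusted p = 0.0408, and 0.65, adjusted p = 0.0198, limma). The B cell marker sum went with time from 2286.6 and 2173.9 to 3201 and 3465.7 under IFN-γ. In medium it went from 2957.5 and 2571.9 to 2939.2 and 3212.8. The part of B cells in the Blnk rises was not tested. Syk differed by -0.43 with IFN-γ at 4 hours (adjusted p = 0.237) and by -0.11 at 16 hours, and the Src family kinase gene Fgr by -0.32 and -0.17, none called. Lyn was not analysed here.

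On the inhibitory side, 2 of 18 measured ITIM receptors, phosphatases and inhibitors rose and 1 fell with time in medium. Over all probe sets 1.71% rose and 2.57% fell. With time under IFN-γ 4 rose and 0 fell, where 0.821% of all rose and 1.3% fell. For IFN-γ against medium at 16 hours 1 fell, where 0.0966% of all did. Pirb, an ITIM receptor for MHC class I, rose by 0.78 in medium (adjusted p = 0.00601, limma) and by 0.79 with IFN-γ (adjusted p = 0.00915). It read 7.34 and 7.23, then 8.12 and 8.00 in medium. The lectin Clec4a2, which has an ITIM, rose with time in both settings and fell by 0.92 with IFN-γ at 16 hours (adjusted p = 0.0272), but was below the antisense controls in all groups, so the size of its change is uncertain. Dok1, an inhibitory adaptor, fell by 0.58 with time in medium (adjusted p = 0.0275). With IFN-γ, Cd22, a B cell ITIM receptor, rose by 0.89 with time (adjusted p = 0.0228), while the B cell marker sum went from 2286.6 and 2173.9 to 3201 and 3465.7, whose part in it was not tested. The phosphatase genes Ptpn6 and Inpp5d, which act behind ITIMs, differed by -0.09 and -0.21 with IFN-γ at 4 hours and by 0.14 and -0.02 at 16 hours, none called.

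**Figure D3:**
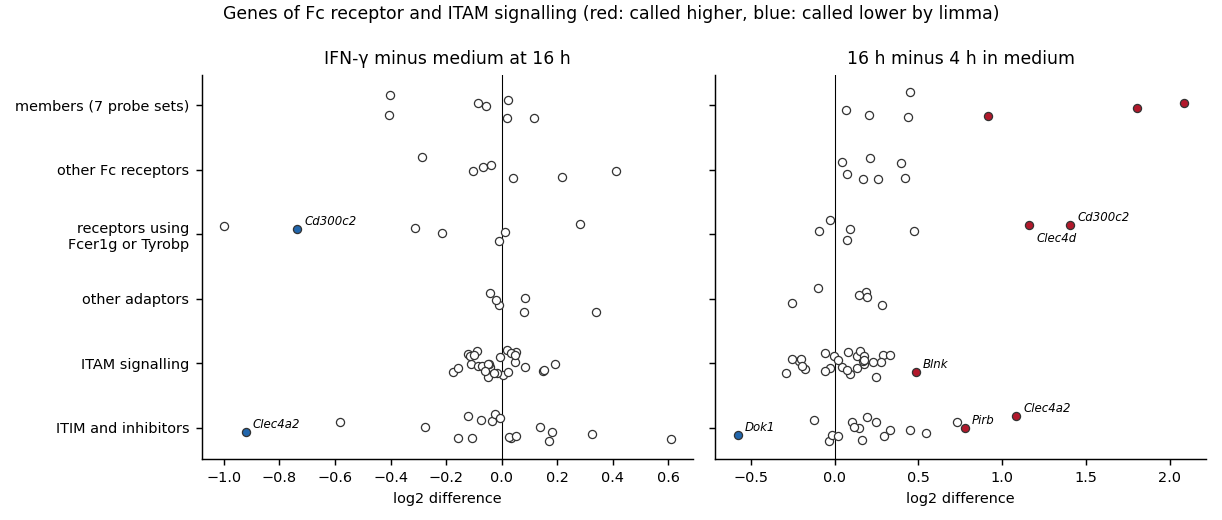
Log2 differences of the 7 member probe sets and of the genes of 5 lists, 1 point per probe set or gene, for IFN-γ against medium at 16 hours (left) and 16 against 4 hours in medium (right), with red points called higher and blue points called lower by limma. On the right the members reach 2.08 and Cd300c2 1.41, and Blnk is the only 1 of the 28 ITAM signalling genes called there.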

How the data were processed

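Per the submitters' processing notes, RMA made the values; its version and settings are not given in the sources used here. The authors deposited intensity per probe set on a linear scale (2.65 to 12523.5). Here log2 was taken with no pseudocount or further normalization. After 66 array controls were left out, 12422 probe sets were fitted with limma 3.58.1 in R 4.3.3 (means of 4 groups over 8 arrays, eBayes, two-sided) and adjusted by Benjamini-Hochberg. Symbols came from the platform annotation and were checked by gene number against RefSeq (GRCm38.p6); 10817 of 10833 probe sets with 1 symbol matched. List genes are represented by their brightest probe set.

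Members, lists and alternatives were chosen with earlier results of these data known. Named were all member probe sets, up to 3 called genes per list and comparison with the smallest p, a fixed set of signalling genes, and the 3 genes most like each member; others named for a level or a count were chosen after their values were seen. Lists for monocytes, mast cells, plasmacytoid and CD8- dendritic cells and erythroid cells were also computed. The fit was tested on simulated data.

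Arrays 1 and 2 deviated together across groups (6 correlations of their differences between 0.367 and 0.740), so the replicate number was used as a block beside results where it changed a call. Alternatives were quantile normalization, median centring, no dimmest 40% of probe sets, a trended robust prior, only the 4 arrays compared, each array left out, both 16-hour arrays of number 1 left out, an adjusted p under 0.01, and 1 mean value per gene.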

Additional observations from a re-analysis of the deposited data

How the results depend on the processing

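Among the values of single probe sets, 496 kept their direction and their side of the threshold, 23 lost a call, 5 gained one and 38 changed sign, all of the last in differences that were not called. The rises of Fcgr1 101793_at with time were called under all 16 alternatives. The median rise in medium was 0.9162 without the dimmest 40% of probe sets, which removes Fcgr3 and the dimmer Fcer1g. With the replicate block 1 probe set was called for IFN-γ at 4 hours in place of 0, and 2 in the model of 1 IFN-γ effect in place of 1. Without both 16-hour arrays of number 1 that model called 0, and with each array left out 0 to 1. Against 4 calls with time under IFN-γ, there were 2 at an adjusted p under 0.01, 2 with 1 mean value per gene, and 1 to 4 with each array left out. By quantile normalization, signs changed for Fcgr1 102879_s_at with IFN-γ at 16 hours (-0.0018) and Fcgr3 with time in medium (-0.0059), and by median centring for the difference of effects of Fcer1g 160692_at (0.0078). Without both 16-hour arrays of number 1 they changed for IFN-γ at 16 hours in Fcer1g 162181_f_at (-0.1733) and Fcgr3 (-0.0551), for the difference of effects of Fcgr3 (-0.0265), and with time for Fcgr3 in medium (-0.0131) and under IFN-γ (-0.0396) and Fcer1g 160692_at under IFN-γ (-0.0581). With 1 mean per gene, Fcer1g at 16 hours was -0.0308. With each array left out, IFN-γ at 4 hours ranged from -0.2451 to 0.0954 for Fcer1g 160692_at and from -0.1076 to 0.0504 for Fcgr3. At 16 hours the ranges were -0.1746 to 0.06 (Fcgr1 101793_at), -0.3656 to 0.4029 (Fcgr1 102879_s_at), -0.336 to 0.1676 (Fcer1g 160692_at), -0.1001 to 0.1452 (Fcer1g 162181_f_at) and -0.1352 to 0.3686 (Fcgr3). For the difference of effects they were -0.0387 to 0.1609 (Tyrobp), -0.0813 to 0.3243 (Fcgr2b), -0.7364 to 0.0321 (Fcgr1 102879_s_at), -0.2611 to 0.2424 (Fcer1g 160692_at) and -0.1066 to 0.3972 (Fcgr3). With time, they were -0.0131 to 0.1471 for Fcgr3 in medium, and under IFN-γ -0.0396 to 0.4642 for Fcgr3 and -0.0581 to 0.4454 for Fcer1g 160692_at. The cause of these changes was not tested. A lone array left in a group is assumed to vary like the other groups. The fit of 4 arrays was not run for the difference of effects. With 2 arrays a group and several members near the antisense controls, small differences were not detectable.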
